A study of Rattus norvegicus with 9 samples.

Results

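The 10 genes described here encode enzymes and a chaperone that modify, fold and crosslink collagen. They were taken by symbol: the lysyl oxidase (LOX) family (*Lox*, *Loxl1*, *Loxl2*, *Loxl3* and *Loxl4*), the lysyl hydroxylases or PLOD enzymes (*Plod1*, *Plod2* and *Plod3*), the prolyl 4-hydroxylase subunit gene *P4ha3* and the collagen chaperone gene *Serpinh1*. All 10 were present among the 32883 genes of the expression table, and all 10 were among the 13273 genes that passed the filter on low counts. RNA-seq was performed on cultured fibroblasts (Fb) from adult male wild-type Lewis rats aged 10 weeks, with 3 libraries per type. The cells named Fb-Epn were grown from the epineurium, the outer sheath, of sciatic nerves of 2 rats, those named Fb-Par from the parenchyma, the inside, of the same nerves, and those named Fb-Skn from abdominal skin taken from 1 other rat. All 3 types were untreated, were grown in the same serum-containing medium and were passaged 1 time.

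Collagen is modified while it is still inside the cell. Prolyl hydroxylases stabilise the triple helix, lysyl hydroxylases convert selected lysines to hydroxylysine, and the chaperone HSP47, the product of *Serpinh1*, binds the folded procollagen in the endoplasmic reticulum. After secretion, the copper-dependent LOX enzymes oxidise lysine and hydroxylysine residues, and the resulting aldehydes condense into the covalent crosslinks that give collagen fibres and elastin their strength. In peripheral nerve, the epineurium is the collagen-rich outer sheath. Per the study, fibroblasts of the parenchyma are a mix of endoneurial and perineurial cells, since the perineurium is a sheath that is difficult to separate from it.

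The libraries held between 10084584 and 12310506 counts assigned to genes, and the 10 genes had between 94 and 48193 counts per library. The coefficient of variation of their TPM (a level per transcript length, scaled to the same total in every library) within a type ranged from 0.413% to 11.1%. The 3 libraries of a type cannot be 3 animals, and the labels do not say whether they came from separate cultures, so the p-values measure the spread between these libraries, which may be technical. Nerve and skin also differed in rat and body site, which cannot be told apart from the cell type. In bulk RNA, fewer cells of a type and less RNA per cell cannot be told apart either. The summed TPM of 7 fibroblast marker genes was high in every library, at 38780 to 38991 in Fb-Epn, 31093 to 32089 in Fb-Par and 38908 to 40019 in Fb-Skn. The 7 Schwann cell markers reported here summed to 190.2 to 201 TPM in Fb-Epn, 254 to 262 TPM in Fb-Par and 10.5 to 13.2 TPM in Fb-Skn, with *Sox10*, *Erbb3* and *Cdh19* listed at 0 in Fb-Skn. Macrophage and leukocyte markers summed to 219.6 to 247.3, 55.2 to 59.9 and 18.3 to 20.4 TPM in the same order, and mural cell markers to 82.6 to 82.9, 392.5 to 408.0 and 160.2 to 173.2 TPM. Of the 4 mural genes, *Mcam* and *Cspg4* were lower in Fb-Epn than Fb-Skn by edgeR, and *Rgs5* (4.49 TPM against a listed 0) and *Notch3* (6.35 against 1.55 TPM) were higher. Endothelial markers summed to 10.4 to 11.2, 9.77 to 10.9 and 1.00 to 1.56 TPM in the same order. Most of that sum was *Tek*, at means of 8.37, 10.2 and 1.20 TPM, while *Cdh5* was highest in Fb-Epn, at 1.78 TPM. Keratinocyte markers summed to at most 1.46 TPM in any library. Chondrocyte-like markers summed to 2.34 to 3.27, 26.6 to 28.4 and 0.185 to 0.497 TPM across Fb-Epn, Fb-Par and Fb-Skn. Most of the chondrocyte-like sum in Fb-Par was *Col9a1*, at a mean of 24.5 TPM, with *Acan* at 1.66 TPM and *Col2a1* at 0.0302 TPM. *Matn3* went the other way, at 2.23 TPM in Fb-Epn and 1.35 TPM in Fb-Par. The part of these markers in the results below was not tested.

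The crosslinking genes did not move as a block. *Lox*, *Plod1* and *Plod2* were highest in Fb-Epn, *Loxl2* and *Loxl3* were highest in Fb-Par, and *Loxl1*, *P4ha3* and *Serpinh1* were highest in Fb-Skn, each by the edgeR test against both other types. *Loxl4* was lower in Fb-Par than in both other types. *Plod3* was lower in Fb-Par than in both other types as well, and its difference between Fb-Epn and Fb-Skn did not pass the test.

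**Figure D1:**
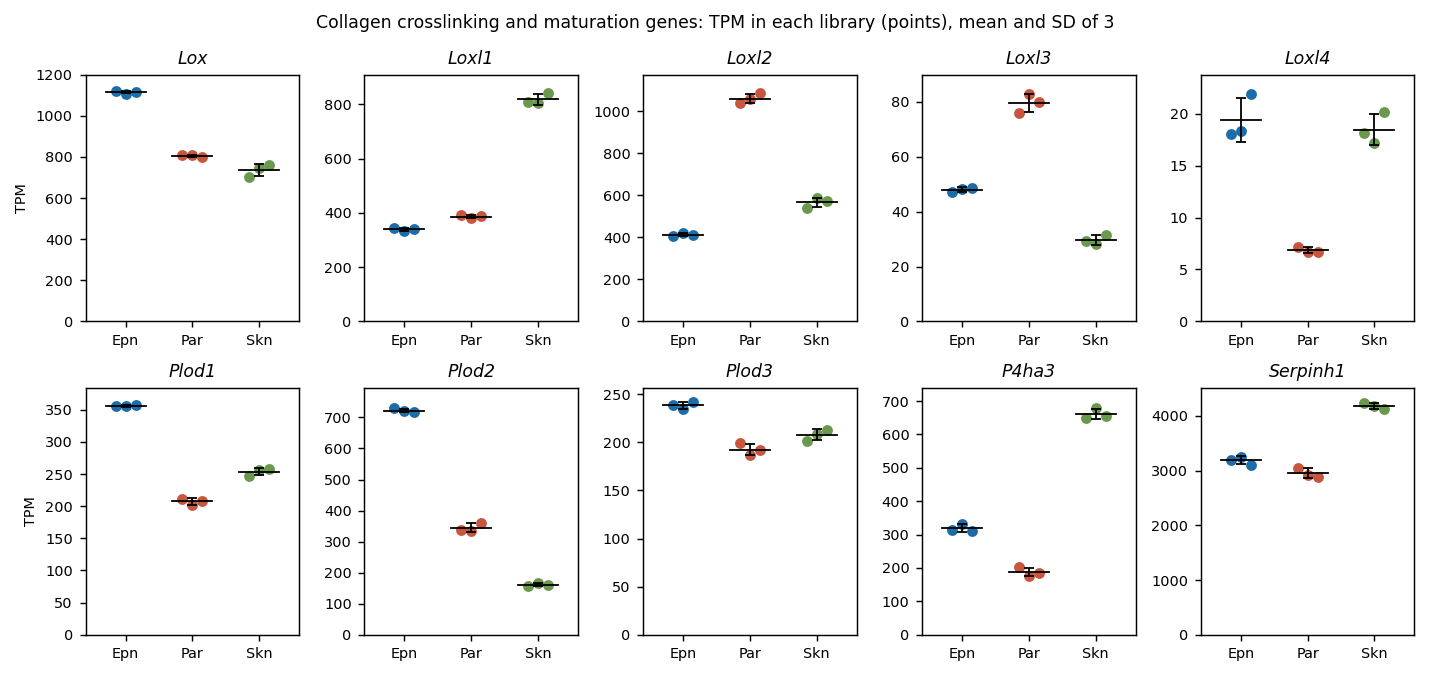
Level of each of the 10 genes in TPM, with 1 panel per gene on its own linear axis from 0, 1 point per library, and bars for the mean and SD of the 3 libraries of a type. *Plod2* stepped down from Fb-Epn (722 TPM) through Fb-Par (345 TPM) to Fb-Skn (161 TPM), whereas *Loxl2* peaked in Fb-Par (1061 TPM).

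In the following, a level is a TPM value as deposited, and a difference is a log2 fold change estimated by edgeR from the counts after TMM scaling, with its standard error (SE) and the p-value adjusted over all 13273 genes. A gene passed the test at an adjusted p below 0.01 and was called a differentially expressed (DE) gene when its log2 fold change also exceeded 2 in size. The 2 scales differ slightly: at the median gene, log2 TPM was higher by 0.13 in Fb-Epn and by 0.14 in Fb-Par than in Fb-Skn relative to the edgeR difference.

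*Lox* encodes the founding member of the family, which oxidises lysines of fibrillar collagen and elastin (rn6 chr18:47500330-47577819, minus strand). Its level was 1122, 1108 and 1117 TPM in the Fb-Epn libraries, 808, 809 and 798 TPM in Fb-Par and 702, 745 and 761 TPM in Fb-Skn. The 3 Fb-Epn libraries stood above all others. *Lox* was higher in Fb-Epn than Fb-Skn by a log2 fold change of 0.46 (SE 0.0237, edgeR adjusted p = 5.1e-10) and higher than in Fb-Par by 0.48 (SE 0.0237, edgeR adjusted p = 3.3e-10). Between Fb-Par and Fb-Skn the difference was -0.02 (95% interval -0.0709 to 0.0309, edgeR adjusted p = 0.5), although the TPM values of these types did not overlap. On TPM with limma that difference was 0.13 and passed the test (limma adjusted p = 0.0061), so its sign and call depended on the scaling.

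*Loxl1* encodes the family member best known for elastic fibre maintenance (rn6 chr8:63067300-63092009, minus strand). It was measured at 344, 334 and 339 TPM in Fb-Epn, 390, 382 and 387 TPM in Fb-Par and 807, 806 and 841 TPM in Fb-Skn. All Fb-Skn libraries lay above the nerve-derived ones, and the nerve-derived types did not overlap. The log2 fold change was -1.41 for Fb-Epn against Fb-Skn (SE 0.0273, edgeR adjusted p = 7.9e-15) and -1.23 for Fb-Par against Fb-Skn (SE 0.0272, edgeR adjusted p = 2.9e-14). *Loxl1* was also slightly lower in Fb-Epn than Fb-Par, with a log2 fold change of -0.18 (SE 0.0272, edgeR adjusted p = 6.9e-05).

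*Loxl2*, which encodes a member with scavenger receptor domains that crosslinks basement membrane collagen (rn6 chr15:51303909-51365234, plus strand), followed a different order. Its level was 405, 421 and 413 TPM in Fb-Epn, 1040, 1058 and 1085 TPM in Fb-Par and 542, 587 and 572 TPM in Fb-Skn. The types did not overlap and Fb-Par stood far above the others. *Loxl2* was 2.55-fold lower in Fb-Epn than Fb-Par (log2 fold change -1.35, SE 0.0305, edgeR adjusted p = 4.6e-14), and 12.1% of all tested genes had a larger difference in that comparison. It was higher in Fb-Par than Fb-Skn by 0.75 (SE 0.0300, edgeR adjusted p = 2.3e-11) and lower in Fb-Epn than Fb-Skn, at -0.60 (SE 0.0304, edgeR adjusted p = 4.6e-10).

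The other two genes of this branch were expressed at much lower levels. *Loxl3* (rn6 chr4:113866804-113883477, plus strand) was measured at 47.1, 48.2 and 48.7 TPM in Fb-Epn, 76.1, 82.8 and 79.9 TPM in Fb-Par and 29.2, 28.1 and 31.7 TPM in Fb-Skn. It shared the peak in Fb-Par with *Loxl2* but, unlike *Loxl2*, was higher in Fb-Epn than Fb-Skn. Its log2 fold change was 1.27 for Fb-Par against Fb-Skn (SE 0.0559, edgeR adjusted p = 7.1e-11), 0.55 for Fb-Epn against Fb-Skn (SE 0.0571, edgeR adjusted p = 1.2e-06) and -0.72 for Fb-Epn against Fb-Par (SE 0.0534, edgeR adjusted p = 3.6e-08). *Loxl4* (rn6 chr1:261835992-261853495, minus strand) was the least abundant of the 10 genes, at 18.0, 18.3 and 21.9 TPM in Fb-Epn, 7.16, 6.71 and 6.72 TPM in Fb-Par and 18.1, 17.2 and 20.1 TPM in Fb-Skn. The Fb-Epn and Fb-Skn libraries overlapped, and those of Fb-Par lay below both. *Loxl4* was 2.84-fold higher in Fb-Epn than Fb-Par (log2 fold change 1.51, SE 0.107, edgeR adjusted p = 2.1e-08) and lower in Fb-Par than Fb-Skn, at -1.57 (SE 0.107, edgeR adjusted p = 1.1e-08). Between Fb-Epn and Fb-Skn the difference was -0.07 (95% interval -0.277 to 0.140, edgeR adjusted p = 0.57), and its sign turned on the TPM scale.

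These shifts changed which LOX enzyme led the transcript pool, while the family sum moved less. The 5 genes summed to 1935 ± 5.13 TPM in Fb-Epn, 2339 ± 17.7 TPM in Fb-Par and 2169 ± 64.7 TPM in Fb-Skn (mean ± SD, n = 3). *Lox* made up 57.7 ± 0.277% of the family in Fb-Epn, against 34.4 ± 0.491% in Fb-Par and 33.9 ± 0.418% for Fb-Skn. *Loxl2* made up 21.3 ± 0.446%, 45.4 ± 0.639% and 26.1 ± 0.642% in the same order, and *Loxl1* 17.5 ± 0.220%, 16.5 ± 0.256% and 37.7 ± 0.777%. Thus *Lox* was the leading transcript in Fb-Epn, *Loxl2* in Fb-Par and *Loxl1* in Fb-Skn. The ratio of *Loxl2* to *Lox* was 0.370 ± 0.00943 in Fb-Epn, against 1.32 ± 0.0375 in Fb-Par and 0.771 ± 0.0180 for Fb-Skn. The ratio of *Loxl1* to *Lox* was 0.304 ± 0.00235, 0.480 ± 0.00665 and 1.11 ± 0.0350 in that order. In Fb-Skn the shares of *Loxl1* and *Lox* were close, without overlap on TPM and with overlap on the deposited FPKM (34.3% to 35.6% for *Loxl1* and 33.4% to 34.3% for *Lox*). *Loxl3* and *Loxl4* together stayed a minor part, with means of at most 3.40% for *Loxl3* and 1.00% for *Loxl4*. Shares within a library do not depend on scaling between libraries, and they were not tested.

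**Figure D2:**
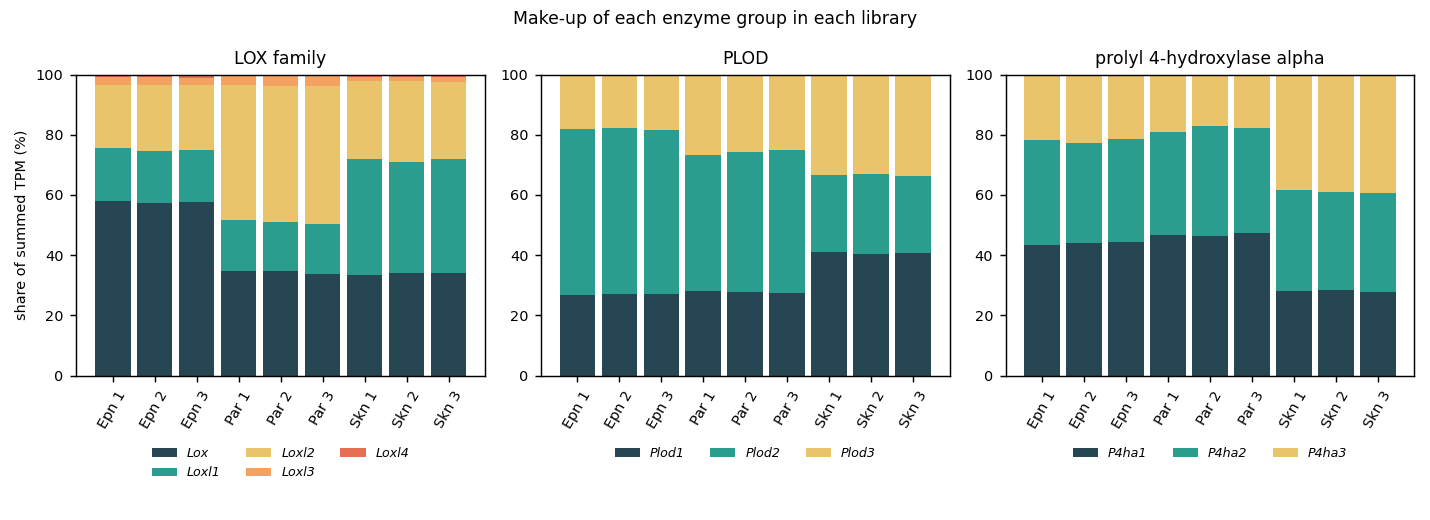
Share of each gene in the summed TPM of the LOX family, the PLOD enzymes and the prolyl 4-hydroxylase alpha subunits, in percent, as 1 stacked bar per library. By the mean of 3 libraries, the leading LOX transcript was *Lox* in Fb-Epn (57.7%), *Loxl2* in Fb-Par (45.4%) and *Loxl1* in Fb-Skn (37.7%), and *Plod2* fell from 54.8% of the PLOD pool in Fb-Epn to 25.9% in Fb-Skn.

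*Plod2* had the widest difference of the 10 genes in these fits, close to that of *P4ha3*, and the other lysyl hydroxylase genes differed less. *Plod2* encodes the enzyme that hydroxylates lysines in the telopeptides of collagen, a step on the route to the hydroxylysine-derived crosslinks abundant in stiff and scarred tissue (rn6 chr8:99977334-100059736, plus strand). It was measured at 729, 721 and 716 TPM in Fb-Epn, 338, 335 and 361 TPM in Fb-Par and 156, 166 and 162 TPM in Fb-Skn. The 3 types were fully separated, in that order. *Plod2* was 4.06-fold higher in Fb-Epn than Fb-Skn (log2 fold change 2.02, SE 0.0326, edgeR adjusted p = 1.1e-15) and was the only DE gene among the 10, in any comparison. Its 95% interval, 1.95 to 2.09, included the threshold of 2, and 8.82% of all tested genes had a larger difference. *Plod2* was also higher in Fb-Par than Fb-Skn by 0.95 (SE 0.0322, edgeR adjusted p = 4e-12) and 2.11-fold higher in Fb-Epn than Fb-Par (log2 fold change 1.08, SE 0.0313, edgeR adjusted p = 8.5e-13).

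*Plod1* encodes the hydroxylase of helical lysines (rn6 chr5:164720587-164747083, minus strand). Its level was 355, 356 and 358 TPM in Fb-Epn, 212, 202 and 209 TPM in Fb-Par and 248, 256 and 257 TPM in Fb-Skn. Fb-Epn was highest, as for *Plod2*, but Fb-Par was lowest. The log2 fold change was 0.35 for Fb-Epn against Fb-Skn (SE 0.0290, edgeR adjusted p = 1.1e-07), -0.44 for Fb-Par against Fb-Skn (SE 0.0295, edgeR adjusted p = 9.3e-09) and 0.79 for Fb-Epn against Fb-Par (SE 0.0293, edgeR adjusted p = 1.2e-11). *Plod3*, whose product also transfers sugars onto hydroxylysine (rn6 chr12:22716423-22726982, minus strand), varied least of the PLOD genes, at 239, 235 and 241 TPM in Fb-Epn, 199, 187 and 192 TPM in Fb-Par and 202, 209 and 213 TPM in Fb-Skn. It was higher in Fb-Epn than Fb-Par by 0.32 (SE 0.0333, edgeR adjusted p = 1.6e-06) and lower in Fb-Par than Fb-Skn, at -0.26 (SE 0.0335, edgeR adjusted p = 1.1e-05). On the TPM scale the second of these did not pass the test (limma log2 fold change -0.11, limma adjusted p = 0.021). Between Fb-Epn and Fb-Skn the difference of *Plod3* was 0.06 (95% interval -0.0146 to 0.128, edgeR adjusted p = 0.16), and on the TPM scale it was 0.20 and passed (limma adjusted p = 0.00097). *Plod3* overlaps *Znhit1* on the opposite strand, which had 475 to 749 counts, and the strand setting of the counting is not given in the sources used here.

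The PLOD genes summed to 1317 ± 5.36 TPM in Fb-Epn, 745 ± 18.9 TPM in Fb-Par and 623 ± 14.9 TPM in Fb-Skn (mean ± SD, n = 3). *Plod2* made up 54.8 ± 0.349% of that sum in Fb-Epn, against 46.3 ± 1.12% in Fb-Par and 25.9 ± 0.413% for Fb-Skn, whereas *Plod1* made up 27.1 ± 0.187%, 27.9 ± 0.431% and 40.7 ± 0.175%. The ratio of *Plod2* to *Plod1*, the telopeptide to the helical enzyme, was 2.03 ± 0.0255 in Fb-Epn, against 1.66 ± 0.0661 in Fb-Par and 0.637 ± 0.0123 for Fb-Skn. In both nerve-derived types *Plod2* was therefore the most abundant PLOD transcript, and in Fb-Skn it was the least abundant.

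The promoters of the PLOD genes are shown because these genes were all higher in Fb-Epn than Fb-Par but differed in their order against Fb-Skn. Each is the 250 bases before the RefSeq transcription start, 5′ to 3′ on the strand of the gene, in build GRCr8, at chr5:163650738-163650987 (minus strand), chr8:101964068-101964317 (plus strand) and chr12:25323632-25323881 (minus strand). Capitals mark matches on either strand to the hypoxia response core ACGTG, its variant GCGTG, the GC box GGGCGG or the heat shock pair GAANNTTC.
Plod1: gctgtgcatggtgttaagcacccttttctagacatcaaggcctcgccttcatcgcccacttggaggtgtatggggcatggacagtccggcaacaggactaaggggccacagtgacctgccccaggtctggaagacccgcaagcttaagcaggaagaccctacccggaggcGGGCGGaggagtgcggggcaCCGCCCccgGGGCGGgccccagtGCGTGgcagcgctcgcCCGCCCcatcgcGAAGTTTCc
Plod2: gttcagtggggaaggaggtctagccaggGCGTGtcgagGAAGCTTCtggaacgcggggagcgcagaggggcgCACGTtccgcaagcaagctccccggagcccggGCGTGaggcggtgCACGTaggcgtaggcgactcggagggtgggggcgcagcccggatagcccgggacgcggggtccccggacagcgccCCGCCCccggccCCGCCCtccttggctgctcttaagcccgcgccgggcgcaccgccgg
Plod3: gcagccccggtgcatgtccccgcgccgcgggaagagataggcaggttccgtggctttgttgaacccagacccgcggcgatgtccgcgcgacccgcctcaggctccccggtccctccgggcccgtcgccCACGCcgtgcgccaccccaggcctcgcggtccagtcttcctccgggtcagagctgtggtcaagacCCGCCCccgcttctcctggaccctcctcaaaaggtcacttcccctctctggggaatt
The *Plod2* window held ACGTG in 2 places, 178 and 133 bases before the start, and GCGTG in 2 places, 222 and 146 bases before it, whereas *Plod1* and *Plod3* held 1 GCGTG each and no ACGTG. Of the 33469 rat promoters of this length in the RefSeq table, 16.6% held ACGTG, 25.9% GCGTG, 30.5% GGGCGG and 7.23% GAANNTTC on either strand. These shares count promoters with at least 1 match and were not matched for base content. G and C made up 65.6% of the *Plod1* window, 74.8% of *Plod2* and 69.6% of *Plod3*, against a median of 51.2% over all promoters. CCAAT and TATAAA, found in 34.0% and 12.9% of promoters, did not match in these windows. The matches are letters in a window and no measure of binding.

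*P4ha3* encodes a catalytic alpha subunit of collagen prolyl 4-hydroxylase, the enzyme whose product, 4-hydroxyproline, stabilises the triple helix (rn6 chr1:165295847-165330322, plus strand). Its level was 314, 332 and 312 TPM in Fb-Epn, 202, 177 and 185 TPM in Fb-Par and 649, 679 and 656 TPM in Fb-Skn. The types did not overlap, and Fb-Skn stood above every nerve-derived library. *P4ha3* was 3.90-fold lower in Fb-Par than Fb-Skn (log2 fold change -1.97, SE 0.0463, edgeR adjusted p = 6e-14), with a 95% interval of -2.06 to -1.87 across the DE threshold, and 9.25% of all tested genes had a larger difference. It was 2.28-fold lower in Fb-Epn than Fb-Skn (log2 fold change -1.19, SE 0.0446, edgeR adjusted p = 1.3e-11) and higher in Fb-Epn than Fb-Par by 0.78 (SE 0.0463, edgeR adjusted p = 3.1e-09). Without Fb-Par replicate 1, *P4ha3* passed the DE threshold against Fb-Skn, at -2.02.

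*P4ha2* followed the same order as *P4ha3* with smaller differences, and *P4ha1* did not. *P4ha2* was lower in Fb-Epn than Fb-Skn, at -0.33 (SE 0.0300, edgeR adjusted p = 3.3e-07), lower in Fb-Par than Fb-Skn, at -0.76 (SE 0.0303, edgeR adjusted p = 2.4e-11), and higher in Fb-Epn than Fb-Par by 0.43 (SE 0.0303, edgeR adjusted p = 1.9e-08). *P4ha1* was at 637, 489 and 476 TPM and *P4ha2* at 493, 368 and 561 TPM across Fb-Epn, Fb-Par and Fb-Skn (means of 3 libraries). *P4ha3* therefore made up 22.0 ± 0.773% of the alpha subunit transcripts in Fb-Epn, against 18.0 ± 0.947% in Fb-Par and 38.9 ± 0.419% for Fb-Skn, while *P4ha1* made up 43.9%, 46.8% and 28.0% and *P4ha2* 34.0%, 35.2% and 33.1%. *P4ha3* was the least abundant alpha subunit transcript in both nerve-derived types and the most abundant in Fb-Skn.

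*Serpinh1*, the HSP47 gene (rn6 chr1:164301010-164308317, minus strand), was the most abundant of the 10 genes in every type. Its level was 3200, 3250 and 3106 TPM in Fb-Epn, 3055, 2927 and 2879 TPM in Fb-Par and 4225, 4182 and 4121 TPM in Fb-Skn. By mean TPM it ranked 29 among all genes in Fb-Epn, with ranks of 28 in Fb-Par and 19 for Fb-Skn. The types did not overlap, with Fb-Skn highest. The log2 fold change was -0.53 for Fb-Epn against Fb-Skn (SE 0.0284, edgeR adjusted p = 8.1e-10) and -0.65 for Fb-Par against Fb-Skn (SE 0.0285, edgeR adjusted p = 7e-11). The difference between the nerve-derived types was small, at 0.12 for Fb-Epn against Fb-Par (SE 0.0284, edgeR adjusted p = 0.0029), and the adjusted p rose to between 0.01 and 0.017 when Fb-Epn replicate 1 or 2 or Fb-Par replicate 2 or 3 was left out, with log2 fold changes of 0.10 to 0.12. *Serpinh1* and *P4ha3* lie 987529 bases apart on the same chromosome.

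The 250 bases before the start of the genes that were highest in Fb-Skn are shown in the same form, in GRCr8, at chr8:67612225-67612474 (minus strand), chr1:164040614-164040863 (plus strand) and chr1:163062977-163063226 (minus strand).
Loxl1: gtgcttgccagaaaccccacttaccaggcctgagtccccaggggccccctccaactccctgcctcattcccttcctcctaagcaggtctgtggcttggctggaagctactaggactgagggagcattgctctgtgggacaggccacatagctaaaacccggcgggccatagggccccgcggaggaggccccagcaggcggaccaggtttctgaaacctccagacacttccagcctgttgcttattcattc
P4ha3: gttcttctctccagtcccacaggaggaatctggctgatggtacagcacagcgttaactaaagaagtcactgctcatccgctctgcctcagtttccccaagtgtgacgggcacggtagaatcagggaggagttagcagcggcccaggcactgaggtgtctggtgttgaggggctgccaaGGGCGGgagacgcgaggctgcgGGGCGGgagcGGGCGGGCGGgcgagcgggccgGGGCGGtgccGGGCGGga
Serpinh1: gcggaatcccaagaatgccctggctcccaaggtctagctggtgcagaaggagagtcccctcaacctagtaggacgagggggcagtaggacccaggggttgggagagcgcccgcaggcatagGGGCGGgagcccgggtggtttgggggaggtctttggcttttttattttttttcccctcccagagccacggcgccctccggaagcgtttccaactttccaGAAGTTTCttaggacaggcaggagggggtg
The windows had little in common by these letters. *P4ha3* held GGGCGG in 6 places, a pair of which overlap in the run of 10 capitals, *Serpinh1* held GGGCGG 129 bases and GAANNTTC 30 bases before the start, and *Loxl1* held no match to any of the 6 motifs.

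The order of levels within a type was led by *Serpinh1* throughout. In Fb-Epn it was followed by *Lox*, *Plod2*, *Loxl2*, *Plod1*, *Loxl1*, *P4ha3*, *Plod3*, *Loxl3* and *Loxl4*. In Fb-Par the second place was taken by *Loxl2*, ahead of *Lox*, *Loxl1*, *Plod2*, *Plod1*, *Plod3*, *P4ha3*, *Loxl3* and *Loxl4*. In Fb-Skn *Loxl1* was second, ahead of *Lox*, *P4ha3*, *Loxl2*, *Plod1*, *Plod3*, *Plod2*, *Loxl3* and *Loxl4*. Neighbours in these orders did not overlap across libraries except *Plod3* and *P4ha3* in Fb-Par. *Plod2* moved from rank 188 among all genes in Fb-Epn to rank 426 in Fb-Par and rank 1007 in Fb-Skn.

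Fb-Epn and Fb-Skn were compared to ask how fibroblasts of the nerve sheath differ from those of the skin. *Plod2*, *Loxl3*, *Lox* and *Plod1* were higher in Fb-Epn, and *Loxl1*, *P4ha3*, *Loxl2* and *Serpinh1* were lower. Thus 8 of the 10 genes passed the test, 4 in each direction, where 43.9% of all tested genes passed (23.0% higher and 20.9% lower). The DE call went to *Plod2* alone, where 8.44% of all tested genes were DE genes (6.22% higher and 2.22% lower). The median size of the log2 fold change was 0.54 over the 10 genes and 0.33 over all tested genes. TPM values did not overlap for 9 of the 10 genes, where 61.4% of all tested genes did not overlap.

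Fb-Par and Fb-Skn were compared in the same way for fibroblasts inside the nerve. *Loxl3*, *Plod2* and *Loxl2* were higher in Fb-Par, and *P4ha3*, *Loxl4*, *Loxl1*, *Serpinh1*, *Plod1* and *Plod3* were lower. That made 9 of 10 genes past the test, with 3 higher and 6 lower, where 45.6% of all tested genes passed (23.2% higher and 22.4% lower). None of the 10 was a DE gene by edgeR with the 3 libraries of each type, where 8.54% of all tested genes were (5.86% higher and 2.67% lower). The median size of the log2 fold change was 0.85 over the 10 genes and 0.34 over all tested genes. TPM values did not overlap for any of the 10 genes, where 61.7% of all tested genes did not overlap.

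Fb-Epn and Fb-Par were compared to ask how the fibroblasts of the nerve compartments differ. *Loxl4*, *Plod2*, *Plod1*, *P4ha3*, *Lox*, *Plod3* and *Serpinh1* were higher in Fb-Epn, and *Loxl2*, *Loxl3* and *Loxl1* were lower. All 10 genes passed the test, 7 higher and 3 lower, where 38.8% of all tested genes passed (20.2% higher and 18.6% lower). None of the 10 was a DE gene, where 6.48% of all tested genes were (4.09% higher and 2.39% lower). The median size of the log2 fold change was 0.75 over the 10 genes and 0.28 over all tested genes. Again no gene of the 10 overlapped in TPM, where 57.3% of all tested genes did not overlap. The 3 comparisons share libraries, so their calls are not independent.

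**Figure D3:**
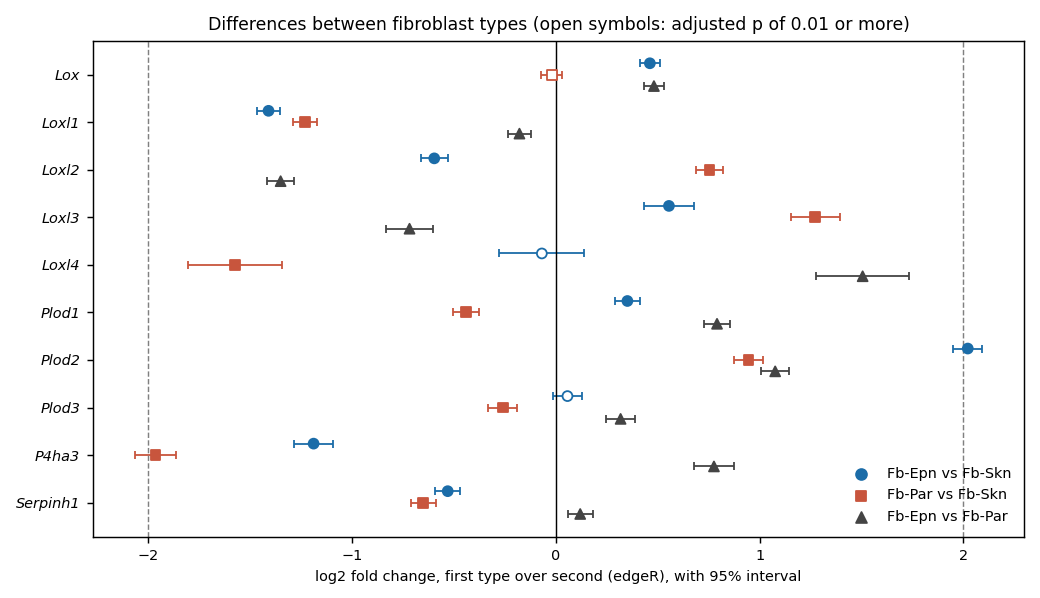
Log2 fold change of each of the 10 genes in the 3 comparisons by edgeR, with 95% intervals as bars, open symbols where the test was not passed, and dashed lines at the DE threshold of 2 in size. *Plod2* was at 2.02 for Fb-Epn against Fb-Skn and *P4ha3* at -1.97 for Fb-Par against Fb-Skn, and the intervals of *Lox* (Fb-Par against Fb-Skn) and of *Loxl4* and *Plod3* (Fb-Epn against Fb-Skn) included 0.

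The substrate was considered next, since the crosslinking genes act on collagen. The TPM of 10 fibrillar collagen genes summed to 33717 ± 39.1 in Fb-Epn, against 26256 ± 688 in Fb-Par and 30247 ± 663 for Fb-Skn (mean ± SD, n = 3), and *Col1a2* was not analysed here. Per 1000 TPM of these collagens, the LOX family reached 57.4 ± 0.104 TPM in Fb-Epn, 89.1 ± 2.38 TPM in Fb-Par and 71.7 ± 1.26 TPM in Fb-Skn. The PLOD genes ran in another order, at 39.1 ± 0.124, 28.4 ± 1.42 and 20.6 ± 0.163 TPM. *Serpinh1* reached 94.5 ± 2.25, 112.6 ± 5.14 and 138.1 ± 4.36 TPM, and *P4ha3* 9.48 ± 0.346, 7.16 ± 0.647 and 21.9 ± 0.254 TPM. Relative to these 10 fibrillar collagen genes, Fb-Epn was thus highest for the lysyl hydroxylases and Fb-Par for the LOX family. Fb-Skn was highest for *Serpinh1* and *P4ha3*, with no overlap between types in any of these 4 measures. These ratios were not tested. Collagens of other kinds were not in the sum, so the order holds for this sum only. The study lists *Col4a1* and *Col4a2* among its most highly expressed soluble factor genes in Fb-Par only.

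**Figure D4:**
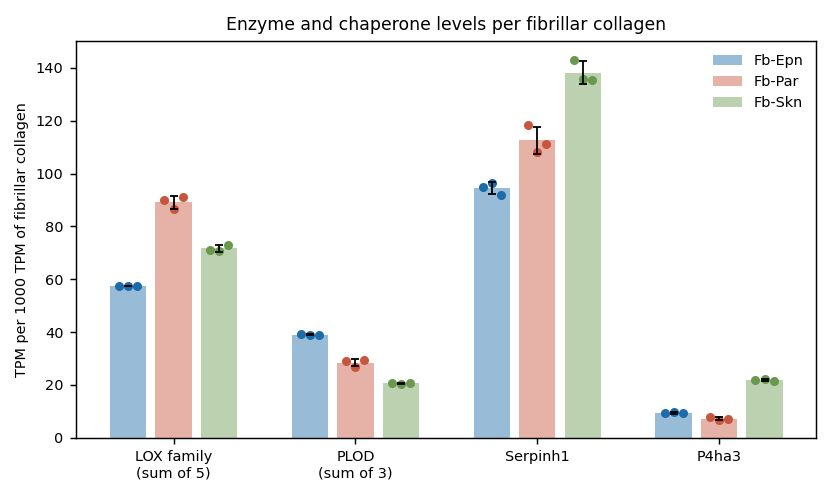
Summed TPM of the LOX family, of the PLOD genes, of *Serpinh1* and of *P4ha3* per 1000 TPM of 10 fibrillar collagen genes, with 1 point per library and bars for the mean and SD of each type. The LOX family was highest in Fb-Par (89.1), the PLOD genes in Fb-Epn (39.1) and *Serpinh1* in Fb-Skn (138.1).

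The collagens themselves also differed. Of 10 tested genes for fibrillar collagens and elastin, 3 were higher and 3 lower in Fb-Epn than Fb-Skn (median log2 fold change -0.15), 3 were higher and 6 lower in Fb-Par than Fb-Skn (median -0.43), and 6 were higher and 2 lower in Fb-Epn than Fb-Par (median 0.24). Over all tested genes, 43.9%, 45.6% and 38.8% passed the test in these comparisons, in the same order. On TPM with limma the medians against Fb-Skn were -0.01 for Fb-Epn and -0.25 for Fb-Par. *Col3a1*, a chain of skin and vessel fibrils, was higher in Fb-Epn than Fb-Skn by 1.40 (SE 0.0255, edgeR adjusted p = 4.4e-15), whereas *Col1a1*, the main fibril chain, was lower, at -0.55 (SE 0.0171, edgeR adjusted p = 1.5e-12). *Col11a1*, a chain that limits fibril diameter, was higher in Fb-Par than Fb-Skn by 3.72 (SE 0.0370, edgeR adjusted p = 6.8e-18). *Eln*, the elastin gene and a substrate of *Lox* and *Loxl1*, was lower in Fb-Par than Fb-Skn, at -1.86 (SE 0.0516, edgeR adjusted p = 3.9e-13), and its mean level was 84.2, 27.0 and 88.2 TPM across Fb-Epn, Fb-Par and Fb-Skn.

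Among 16 tested genes for other collagen-modifying enzymes, chaperones and related proteins, among them *Sparc*, *Creb3l1* and *Tmem38b*, most were lower in the nerve-derived types. Against Fb-Skn, 1 was higher and 10 lower in Fb-Epn (median log2 fold change -0.40), and none was higher and 14 were lower in Fb-Par (median -0.60), where the median over all tested genes was -0.0028 and -0.0121. In Fb-Epn against Fb-Par, 9 were higher and 1 lower (median 0.22). The shares of all tested genes that passed were 43.9%, 45.6% and 38.8% in these comparisons, in this order. On TPM with limma or the Tukey-Kramer test (the latter not adjusted over genes), 11 of the 16 were lower in Fb-Par than Fb-Skn, and 2 were higher and 10 lower in Fb-Epn (median -0.26). *P4ha1* was the gene that was higher in Fb-Epn than Fb-Skn, by 0.28 (SE 0.0317, edgeR adjusted p = 3.2e-06). *Fkbp10*, which encodes a chaperone needed for telopeptide lysyl hydroxylation, was lower in Fb-Par than Fb-Skn, at -0.80 (SE 0.0288, edgeR adjusted p = 7.1e-12). *Colgalt1*, for the galactosyltransferase of hydroxylysine, was lower in Fb-Epn at -0.56 (SE 0.0368, edgeR adjusted p = 7.6e-09) and in Fb-Par at -0.72 (SE 0.0370, edgeR adjusted p = 4.8e-10).

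Genes for procollagen processing and for partners of LOX maturation moved in both directions. Of 15 tested, 7 were higher and 5 lower in Fb-Epn than Fb-Skn (median 0.23), 8 were higher and 6 lower in Fb-Par than Fb-Skn (median 0.52), and 3 were higher and 8 lower in Fb-Epn than Fb-Par (median -0.24). Among all tested genes, 43.9%, 45.6% and 38.8% passed in the same order. With all genes of at least 1 count, which added 1 gene, the median for Fb-Par against Fb-Skn was 0.155, and with at least 10 counts in every library that for Fb-Epn against Fb-Skn was 0.126. *Tgm2*, for a transglutaminase that forms a different kind of crosslink, was at 8.08, 67.9 and 4.34 TPM across Fb-Epn, Fb-Par and Fb-Skn, and was higher in Fb-Par than Fb-Skn by 3.82 (SE 0.0934, edgeR adjusted p = 9e-14). *Fbln5*, for an elastic fibre protein that binds LOXL1, was at 95.5, 207 and 567 TPM in the same order, and was lower in Fb-Epn than Fb-Skn, at -2.71 (SE 0.0349, edgeR adjusted p = 1.3e-16). *Adamts2*, for a procollagen N-proteinase, was lower in Fb-Epn than Fb-Skn, at -1.43 (SE 0.0315, edgeR adjusted p = 3.3e-14). *Tll1*, for a proteinase of the family that cleaves the LOX propeptide, was higher in Fb-Par than Fb-Skn by 2.22 (SE 0.0499, edgeR adjusted p = 3.4e-14). *Bmp1*, of the same family, went the other way by mean TPM, at 125, 160 and 189 TPM across Fb-Epn, Fb-Par and Fb-Skn.

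*Plod2* and *Lox* are among the known targets of hypoxia-inducible factor, and the part of this factor in these data was not tested. Other genes described here did not all share the direction of *Plod2* and *Lox*. *Loxl2* was lower in Fb-Epn, at -0.60 against Fb-Skn and -1.35 against Fb-Par. In Fb-Epn against Fb-Skn, *P4ha2* was at -0.33 and *P4ha1* at 0.28. The 17 tested genes of the hypoxia response were set beside *Plod2* and *Lox*. In Fb-Epn, 14 were higher and 1 lower than in Fb-Skn (median 0.73), and 15 were higher and none lower than in Fb-Par (median 1.62). In Fb-Par, 5 were higher and 11 lower than in Fb-Skn (median -0.48), whereas *Plod2* was higher there by 0.95 and *Lox* differed by -0.02. All tested genes passed at 43.9% for Fb-Epn against Fb-Skn, 38.8% for Fb-Epn against Fb-Par and 45.6% for Fb-Par against Fb-Skn. On TPM with the Tukey-Kramer test, not adjusted over genes, 8 of the hypoxia genes were lower in Fb-Par than Fb-Skn. The lower call in Fb-Epn against Fb-Skn was lost in most alternatives. These were DESeq2, TPM, RLE scaling, library size only, both other count filters and a replicate block. Leaving out Fb-Epn replicate 1 or 2 or any Fb-Skn library also lost it. *Adm*, the adrenomedullin gene, was at 649, 90.2 and 114 TPM across Fb-Epn, Fb-Par and Fb-Skn, with a log2 fold change of 2.37 for Fb-Epn against Fb-Skn (SE 0.0418, edgeR adjusted p = 3.3e-15). *Vegfa*, an angiogenic factor, was at 314, 101 and 307 TPM, and was lower in Fb-Par than Fb-Skn, at -1.75 (SE 0.0301, edgeR adjusted p = 1.7e-15). *Egln3*, a prolyl hydroxylase of the oxygen-sensing pathway, was lower in Fb-Par than Fb-Skn, at -2.26 (SE 0.201, edgeR adjusted p = 2.2e-07). *Ndrg1*, a hypoxia-induced gene, was at 94.3, 101 and 33.5 TPM, and was higher in Fb-Par than Fb-Skn by 1.44 (SE 0.0528, edgeR adjusted p = 8.9e-12). *Ero1a*, for an oxidase of the endoplasmic reticulum, was at 241, 79.3 and 59.6 TPM and *Hk2*, for a hexokinase, at 48.5, 14.8 and 10.7 TPM, the same order as *Plod2*, a likeness noted after their values were seen. *Slc2a1*, the glucose transporter gene, is counted in this list and is also a perineurial marker. Perineurial markers summed to 156.3 to 162.5 TPM in Fb-Epn, 41.3 to 46.7 TPM in Fb-Par and 75.3 to 84.1 TPM in Fb-Skn. Most of that sum was *Slc2a1* itself, at 145, 34.9 and 69.0 TPM, while *Cldn1*, a tight junction gene, was highest in Fb-Par, at a mean of 0.324 TPM, and was listed at 0 in Fb-Skn. Their part in the hypoxia counts was not tested.

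**Figure D5:**
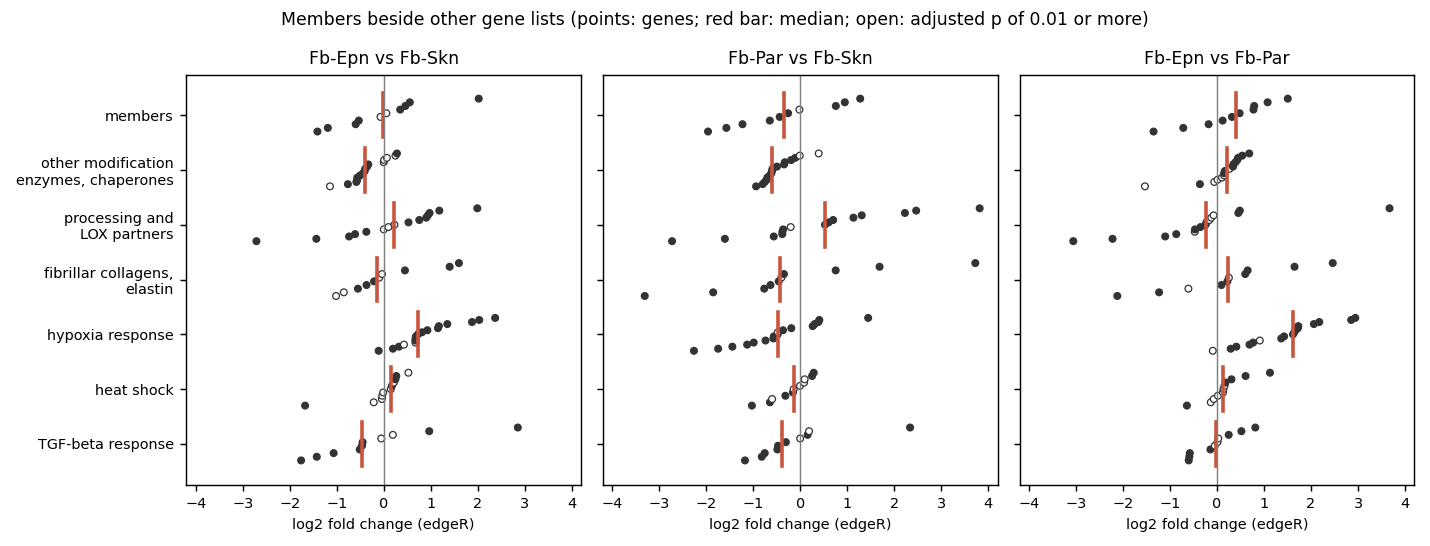
Log2 fold change by edgeR of the 10 genes and of every tested gene of 6 pathway lists in the 3 comparisons, with 1 point per gene, open where the test was not passed, and a bar at the median of each list. The hypoxia response genes had medians of 0.73 (Fb-Epn against Fb-Skn), -0.48 (Fb-Par against Fb-Skn) and 1.62 (Fb-Epn against Fb-Par).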

How the data were processed

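RNA was sequenced as directional poly(A) libraries in 150 bp paired reads. Per the labels and the submitters' processing notes, the authors used FastQC 0.11.7, Trimmomatic 0.38, HISAT2 2.1.0 and featureCounts 1.6.3 on rn6. The annotation release and strand setting are not given in the sources used here. The deposited table holds raw counts, TPM and FPKM per gene and library. The authors' TPM values equal counts divided by 1 length per gene and rescaled (largest relative deviation 8.55e-07), and the deposited FPKM values are not a rescaling of them.

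Counts were tested with edgeR 4.0.16 (quasi-likelihood, TMM factors 0.9546 to 1.028, filterByExpr) in 1 model over all 9 libraries, with Benjamini-Hochberg adjustment within each comparison and a threshold of 0.01 (R 4.3.3). The common coefficient of variation was 8.25%. With 3 libraries against 3, an exact two-sided permutation test cannot go below p = 0.1, so single genes were tested by the model only. Alternatives used other scalings, filters and libraries, DESeq2 1.42.0, limma 3.58.1 on log2(TPM + 1) and log2(TPM + 0.1), and the Tukey-Kramer test on TPM. The Tukey-Kramer p-values cover the comparisons within a gene and were not adjusted over genes, with the same threshold of 0.01. Counting error only is covered by depth, at 10084584 to 12310506 counts per library.

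Named genes were the 10 members in full and, from each list, up to 4 genes per comparison with the largest changes past the test (any gene of the list of modifying enzymes). *Bmp1* was named as well, beside *Tll1*. Genes like a member in pattern were sought only for members called DE, by Pearson's r of log2(TPM + 1). A Schwann cell marker of the original list is not reported here. The members, lists and tests were chosen with earlier results of these data known. The labels do not say whether replicate numbers pair libraries, and the main model did not pair them. The 9 same-number correlations of deviations ran from -0.0804 to 0.0198. With 3 libraries per type, these values cannot show that pairing is absent. Promoters came from the RefSeq table (GRCr8), which matched 8 of 10 members; *Lox* and *Loxl2* had no entry.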

Additional observations from a re-analysis of the deposited data

How the results depend on the processing

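Each of the 30 log2 fold changes (10 genes, 3 comparisons) was recomputed under 20 alternatives. Of the 600 values, 576 kept their direction and call, 10 lost the call, 4 gained it and 10 changed sign, and 25 of the 30 kept both in every alternative. *Plod2* in Fb-Epn against Fb-Skn ranged from 2.01 to 2.16. The sign changes were in *Loxl4*, Fb-Epn against Fb-Skn (0.0206 with library size only, 0.0658 and 0.0688 with limma at pseudocounts of 1 and 0.1, 0.0680 with Tukey-Kramer), and in *Lox*, Fb-Par against Fb-Skn (0.0749 with library size only, 0.00254 with at least 10 counts in every library, 0.00425 with the 6 libraries alone, 0.130, 0.131 and 0.130 on TPM in the same order). *Plod3* gained its call in Fb-Epn against Fb-Skn with library size only (0.146) and on TPM (0.196 to 0.197), and lost it in Fb-Par against Fb-Skn on TPM (-0.111). *Serpinh1* in Fb-Epn against Fb-Par lost its call on TPM (0.109). On TPM, the median over all genes moved by over 0.1 against Fb-Skn. Leaving out 1 library at a time gave 0 to 1 DE genes of the 10 in Fb-Par against Fb-Skn, with *P4ha3* added without Fb-Par replicate 1.

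A replicate block gave 8, 9 and 10 of 10 genes past the test, as without it, and moved the calls over all genes from 5830 to 5580, from 6052 to 5799 and from 5145 to 4859 for Fb-Epn against Fb-Skn, Fb-Par against Fb-Skn and Fb-Epn against Fb-Par. Of the 9 libraries, 0 correlated best with their own number in both other types. Shares from deposited FPKM, an alternative chosen after seeing the data, kept the gene with the highest mean share in each type, with overlap between *Loxl1* and *Lox* (33.9%) in Fb-Skn: *Lox* 33.4% in Fb-Par, *Loxl1* 16.1%, 15.1% and 34.9% and *Loxl2* 22.9%, 47.8% and 29.0% across Fb-Epn, Fb-Par and Fb-Skn, and *Plod1* 26.7% in Fb-Epn and 40.5% in Fb-Skn. Depth limits *Loxl4* most, with 94 counts in its lowest library.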

Other observations

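The heat shock response, to which *Serpinh1* belongs by its regulation, was set beside it with 11 tested genes. In Fb-Epn against Fb-Skn 3 were higher and 1 lower (median log2 fold change 0.15), in Fb-Par against Fb-Skn 2 were higher and 4 lower (median -0.14), and in Fb-Epn against Fb-Par 4 were higher and 1 lower (median 0.14). These counts lie near the shares over all tested genes, of which 43.9%, 45.6% and 38.8% passed in the same order. On TPM, Fb-Par against Fb-Skn gave 4 higher and 2 lower, and the median turned to between 0.01 and 0.02. That median also turned without Fb-Skn replicate 1 (0.00921) and was -0.0622 without Fb-Par replicate 2, and the median for Fb-Epn against Fb-Skn was 0.0756 without Fb-Epn replicate 3. *Hspb1*, for a small heat shock protein, was lower in Fb-Epn than Fb-Skn, at -1.67 (SE 0.0468, edgeR adjusted p = 4.5e-13), and in Fb-Par, at -1.03 (SE 0.0454, edgeR adjusted p = 7.5e-11).

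Of 10 tested genes of the TGF-beta response, 2 were higher and 6 lower in Fb-Epn than Fb-Skn (median -0.46), 2 higher and 6 lower in Fb-Par than Fb-Skn (median -0.39), and 3 higher and 4 lower in Fb-Epn than Fb-Par (median -0.02, or 0.0235 without Fb-Epn replicate 3). The test was passed by 43.9%, 45.6% and 38.8% of all tested genes in the same order. On TPM the median for Fb-Par against Fb-Skn was -0.24. The contractile genes were among those lower in Fb-Epn than Fb-Skn: *Acta2* at -1.76 (SE 0.0254, edgeR adjusted p = 4.1e-16), *Cnn1* at -1.42 (SE 0.0357, edgeR adjusted p = 1.4e-13) and *Tagln* at -1.07 (SE 0.0295, edgeR adjusted p = 4e-13). *Tgfbi*, for a collagen-binding matrix protein, was higher, at 184, 130 and 23.2 TPM across Fb-Epn, Fb-Par and Fb-Skn and a log2 fold change of 2.85 for Fb-Epn against Fb-Skn (SE 0.0583, edgeR adjusted p = 1.5e-14).

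The genes whose pattern was most like that of *Plod2* across the 9 libraries, among 12716 genes searched, were *Sfrp1* (Pearson's r = 0.99941), *Gpnmb* (r = 0.9992) and *Timp1* (r = 0.99904), and 60 genes had r above 0.99. *Sfrp1*, for a secreted Wnt inhibitor, was at 892, 76.7 and 5.05 TPM across Fb-Epn, Fb-Par and Fb-Skn, and *Timp1*, for a metalloproteinase inhibitor, at 1982, 922 and 412 TPM. The libraries form 3 groups, so this likeness describes 3 levels and was not tested.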
